A study of Caenorhabditis elegans with 2 samples.

Results

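The genes described here are 150 of the 580 annotated protein-coding genes of the srd, srh, sri, srj and str families in Caenorhabditis elegans, families of the Str superfamily of chemoreceptors. They were selected by their symbol and by the presence of a candidate region of SOX-4 ChIP-seq near the gene's start. A gene entered when the authors' region list for both replicates together had at least 1 summit around its 5′ end, in a window that reached 1000 bp upstream and 200 bp downstream. The families gave 24 srd, 53 srh, 8 sri, 9 srj and 56 str genes, and the remaining 430 annotated genes had no summit in that window. The same window held a summit at 7543 of 19985 coding genes of the whole genome.

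Chemoreceptors of the Str superfamily are seven-pass membrane proteins of the G protein-coupled receptor type. Each is typically made by a few ciliated sensory neurons of the head or tail, where such receptors detect odours, tastes and pheromones, and most of the genes lie in tandem clusters on chromosome V. SOX-4 is a Sox-family transcription factor that binds DNA through an HMG box.

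The data came from 1 group of 2 biological replicates, with no second condition. The animals were hermaphrodites of strain OP517, which has the mutation unc-119(tm4063) on chromosome III and the transgene wgIs517 coding for SOX-4 with GFP and FLAG tags at its C terminus. They were first-stage (L1) larvae, starved after bleaching and taken 6 hours after synchronization, and chromatin of whole animals was immunoprecipitated through GFP. Whole larvae mix all cell types, so strong binding in few cells and weak binding in many cannot be told apart. A control without the tagged protein is not analysed here, and the labelled genotype names no mutation of sox-4 itself.

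The list of both replicates held 30000 regions and includes background, so a region in it is a candidate and not a significant peak. Its signal, the authors' own value for each region on an unstated scale, started at 12.9 and had a median of 18.4. The authors' optimal list, thresholded on reproducibility, consisted of the 1497 regions of highest signal, and its lowest signal was 51.3. Read depth is unknown. Since the members were chosen by a region in these same data, every comparison below is a description of the lists with no test.

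The families differed in how many of their genes had a region. A region lay at 24 of 67 srd genes (35.8%), 56 of 193 str genes (29.0%), 53 of 220 srh genes (24.1%), 9 of 39 srj genes (23.1%) and 8 of 61 sri genes (13.1%). Together this was 25.9% of the 580 genes, beside 37.7% of all coding genes. The exact 95% interval, which covers the counting of genes only, was 22.3% to 29.6% for all of them, 24.5% to 48.5% for srd and 5.84% to 24.2% for sri. These shares are what the selection itself used, so nothing is read from their difference.

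An optimal peak lay at 8 of the 150 members (5.33%, exact 95% interval 2.33 to 10.2), beside 15% of coding genes with a region. The srh family had 5 of them, at srh-16, srh-68, srh-10, srh-89 and srh-2. The str family had 2, at str-163 and str-1, and the sri family 1, at sri-5. None of the 24 srd and 9 srj members had an optimal peak, and these counts allow shares of up to 14.2% and 33.6%.

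Signal at most members was below the lowest signal of the optimal list. At the strongest region of each member it had a median of 18.8 and ran from 12.9 at srd-36 to 157.0 at srh-16, with the middle of the values between 15.3 and 22.6 (the lower and upper quartiles). Over all coding genes with a region the median was 21.5 and the quartiles were 16.4 and 33.4. The family medians were 15.9 for srd, 17.8 for srj, 18.5 for srh, 20.2 for str and 22.2 for sri, all far below the lowest optimal signal. The lowest members were srd-36 and str-123 (both 12.9), srj-14 (13.0), srh-296 (13.1) and sri-27 (15.3). Of the members, 71 (47.3%) ranked in the weaker part of the list, below its median signal of 18.4. The share was 36.6% over all coding genes with a region.

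**Figure D1:**
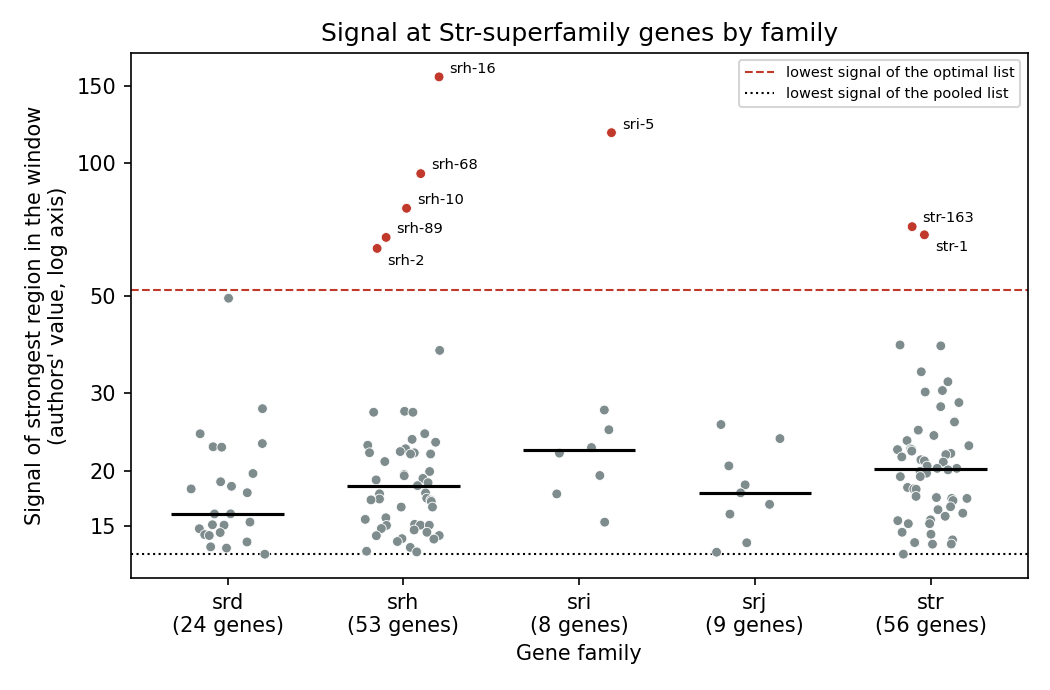
Signal of the strongest region in the window (log axis) for the 150 members by family; each point is a gene, red points have an optimal peak and are named, and black bars are family medians. The 8 red points lie between 64.0 and 157.0, and no other member is above 49.3.

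The strongest region of the superfamily was at srh-16 on chromosome V (ce11, chrV:12291698-12291872), with a signal of 157.0 and rank 188 of the list. Its summit lay 60 bp upstream of the 5′ end of srh-16. Signal was 82.3 in the list of replicate 1 and 80.0 in that of replicate 2, where the region ranked 183 and 187. Both replicates thus placed it at nearly the same rank.

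The region at sri-5 on chromosome I (chrI:11182345-11182740) had a signal of 117.3 and ranked 355. Its signal was 53.3 in replicate 1, at rank 452, and 60.8 in replicate 2, at rank 355, so both placed it among their strongest regions. Its summit lay 252 bp upstream of sri-5 and 480 bp upstream of the divergent gene rsr-1, which codes for an SR-related splicing factor.

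At srh-68 on chromosome II (chrII:12506484-12506879) the signal was 94.6, with ranks of 529 and 550 in replicates 1 and 2 and signals of 48.6 and 47.4. The summit lay 656 bp upstream of srh-68, in sequence outside coding genes. The nearest other coding start, 2268 bp away, was that of its neighbour srh-67. At srh-10 (chrV:6067132-6067527) the signal was 78.9, with ranks of 1047 and 677 and signals of 34.2 and 42.3. Its summit was 190 bp upstream, and the nearest other coding start, of fbxa-214, was 2738 bp away. For both genes no other coding gene's window held the region.

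Both str genes with an optimal peak lie on chromosome IV, and their replicates differed. At str-163 (chrIV:4953812-4954207, signal 71.7, summit 177 bp upstream) the rank was 506 in replicate 1 and 2504 in replicate 2, with signals of 50.1 and 22.1. At str-1 (chrIV:7173386-7173781, signal 68.7, summit 205 bp upstream) the order was the opposite, with rank 3575 and signal 19.4 in replicate 1 and rank 556 and signal 47.1 in replicate 2. Each of these genes thus fell outside the 1497 strongest regions of 1 replicate. The gene str-1 is known as a receptor gene of the AWB olfactory neurons. With pseudogenes left out, their nearest other starts were those of piRNA genes, 607 bp from the summit at str-163 and 591 bp at str-1.

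The weakest of the optimal peaks at members were nearer to genes of other kinds. The peak at srh-89 (chrV:7465543-7465938, signal 67.8) lay 945 bp upstream of srh-89 but 143 bp upstream of the divergent gene F25E5.1. Replicate 1 gave it a signal of 32.2 at rank 1185, and replicate 2 a signal of 35.7 at rank 932. The peak at srh-2 (chrV:727702-728097, signal 64.0) lay 401 bp upstream of srh-2 and within an intron of icl-1, 104 bp downstream of that gene's start. The gene icl-1 codes for the glyoxylate cycle enzyme isocitrate lyase fused to malate synthase. This peak ranked 1033 and 1449, with signals of 34.4 and 28.6.

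The summit and 50 bp on either side of it are printed for 6 of these genes, because they are among the strongest regions at these receptors and differ widely in base composition. They come from the RefSeq copy of WBcel235 (the assembly named ce11 in the files) and read 5′ to 3′ along the strand of the receptor gene. Capitals mark matches, on either strand, to ACAAT (a Sox core), GAGAG and the E-box CACGTG. The windows are chrV:12291751-12291851 at srh-16, chrII:12506632-12506732 at srh-68, chrIV:4953960-4954060 at str-163, chrIV:7173534-7173634 at str-1, chrV:7465691-7465791 (minus strand) at srh-89 and chrV:727850-727950 at srh-2.
srh-16: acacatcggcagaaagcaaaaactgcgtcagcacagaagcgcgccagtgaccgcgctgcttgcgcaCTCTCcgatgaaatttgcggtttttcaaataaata
srh-68: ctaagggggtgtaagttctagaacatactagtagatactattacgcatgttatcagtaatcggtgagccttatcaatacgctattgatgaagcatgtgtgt
str-163: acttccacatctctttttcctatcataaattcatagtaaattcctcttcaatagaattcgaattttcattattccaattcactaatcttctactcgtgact
str-1: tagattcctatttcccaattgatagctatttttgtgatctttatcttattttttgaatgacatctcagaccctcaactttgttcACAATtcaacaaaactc
srh-89: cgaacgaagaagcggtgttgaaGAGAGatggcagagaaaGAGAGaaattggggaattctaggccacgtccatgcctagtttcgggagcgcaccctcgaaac
srh-2: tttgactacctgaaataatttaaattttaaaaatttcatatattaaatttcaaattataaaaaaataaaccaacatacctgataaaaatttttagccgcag
The letters GAGAG or their reverse complement occurred in the windows of srh-16 (1 match) and srh-89 (2 matches), ACAAT in that of str-1 (1 match), and none of the 3 motifs in the other 3. Such a match is a description and not a binding site. G and C made up 49.5% of the window at srh-16, 52.5% at srh-89 and, with the sequence not shown, 55.4% at sri-5. They made up 38.6% at srh-68, 30.7% at str-1, 29.7% at str-163 and 18.8% at srh-2. The sequence at srh-10 is not shown either, and its window had 27.7%. The windows of the optimal peaks thus ranged from poor to rich in G and C.

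Just below the optimal list was srd-53, with a signal of 49.3 and rank 1605. Its region ranked 5337 in replicate 1 (signal 16.9) and 834 in replicate 2 (signal 38.2), so it was among the 1497 strongest regions of replicate 2 but not of replicate 1. The weakest member on the optimal list, srh-2, had a signal of 64.0 at rank 1023, and the list itself ended at 51.3. The next members were str-261 (38.6), str-182 (38.4) and srh-78 (37.5). In replicate 1 they ranked 8380, 14045 and 4741, and in replicate 2 they ranked 1974, 2014 and 2720. All of them thus stood higher in replicate 2. The gene str-168 followed srh-78 at 33.5 and had no overlapping region in the list of replicate 1. The second strongest sri gene, sri-2, was far lower at 27.5 (rank 16916 in replicate 1 and 3064 in replicate 2), and srj-54, the strongest of its family, had 25.4 and was listed in replicate 1 alone.

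The summit windows of str-261, str-182, srh-78 and str-168 are given for comparison with those of the optimal peaks, in the same manner. They are chrIII:11073549-11073649 at str-261, chrV:10233648-10233748 (minus strand) at str-182, chrV:216843-216943 at srh-78 and chrIV:4938971-4939071 at str-168.
str-261: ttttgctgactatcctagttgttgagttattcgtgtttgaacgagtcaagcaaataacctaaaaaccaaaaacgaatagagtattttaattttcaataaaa
str-182: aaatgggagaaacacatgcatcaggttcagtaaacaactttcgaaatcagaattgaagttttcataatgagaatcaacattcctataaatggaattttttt
srh-78: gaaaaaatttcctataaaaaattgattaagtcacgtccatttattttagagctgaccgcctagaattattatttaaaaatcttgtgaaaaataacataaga
str-168: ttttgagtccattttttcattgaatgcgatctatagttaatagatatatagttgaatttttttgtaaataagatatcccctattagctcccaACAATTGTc
These windows were poor in G and C, from 24.8% at srh-78 to 29.7% at str-182. The only motif matches were at str-168, where ACAAT and its reverse complement overlap within the same letters.

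Most members had an overlapping region in at least 1 replicate list, and fewer had one in both. The strongest region of a member overlapped a region of both replicates by at least 1 bp at 54 of 150 members (36.0%), beside 52.5% of coding genes with a region. It overlapped one of replicate 1 alone at 44 members, one of replicate 2 alone at 43 and none at 9. All 8 members with an optimal peak and 46 of the remaining members had both. By family, both replicates held the region at 5 of 8 sri, 20 of 53 srh, 9 of 24 srd, 19 of 56 str and 1 of 9 srj members. That srj gene was srj-20, at rank 6923 in replicate 1 and 14283 in replicate 2.

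The ranks of these regions ranged widely within each replicate. Among the 98 members listed in replicate 1 the rank ran from 183 to 29443 with a median of 12105, and among the 97 listed in replicate 2 from 187 to 28835 with a median of 10211. The 1497 strongest regions of replicate 1 held 7 members, those of replicate 2 held 8, and 6 members were in both. Across the 54 members with both, the log2 signals correlated with a Pearson's r of 0.73, and Spearman's rho was 0.40. All these points come from the same 2 libraries and were selected on the list of both, and paired genes share regions. Among the 46 without an optimal peak Spearman's rho was 0.06, and 25 of them ranked higher in replicate 2 and 21 in replicate 1. Among these 46, the order in one replicate told little of that in the other. They were kept within a limited range of the signal of both replicates together, which by itself can lower such a correlation.

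**Figure D2:**
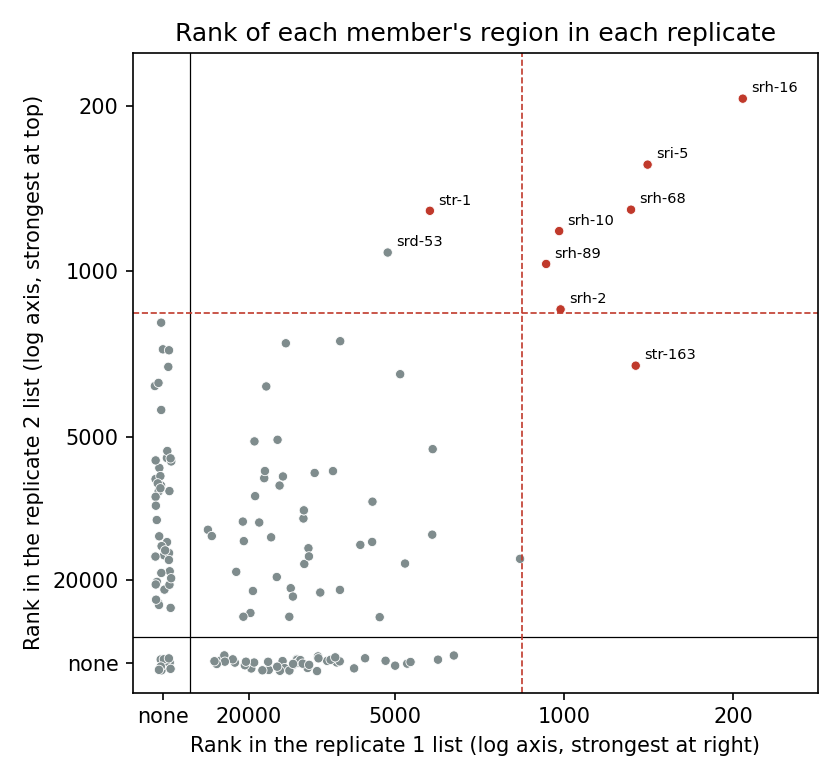
Rank of the region overlapping each member's strongest region in the lists of replicate 1 (x axis) and replicate 2 (y axis), both on log axes with the strongest at right and top; red points have an optimal peak, dashed lines mark rank 1497, and points beyond the solid lines, spread for legibility, have no region in that list. Of the 8 red points, 6 lie in the upper right corner, and str-1 and str-163 each lie beyond a dashed line in 1 replicate.

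**Figure D3:**
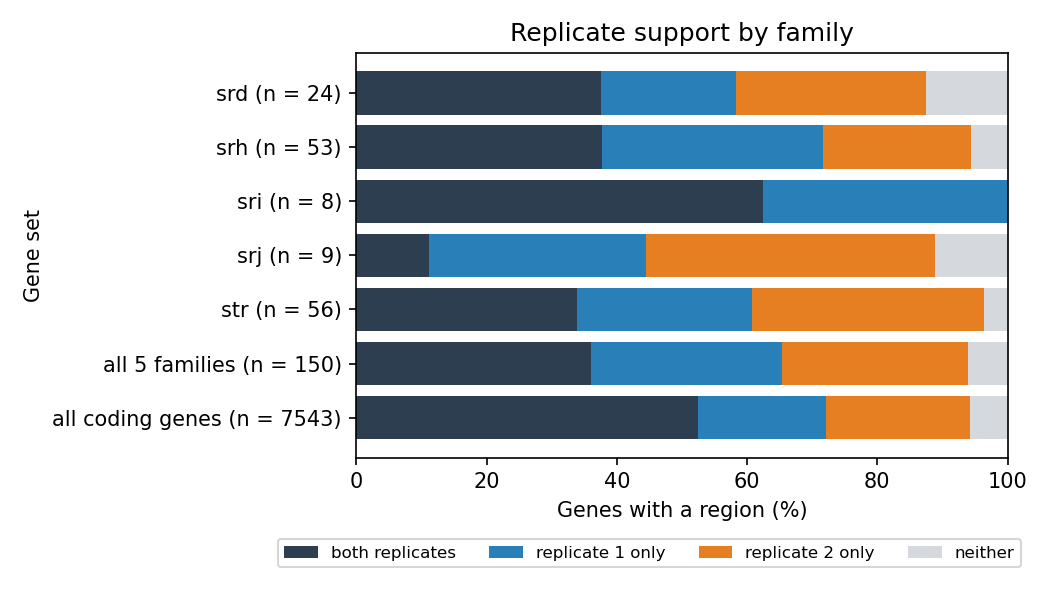
Percent of genes with a region whose strongest region overlaps one in both replicate lists, in 1 of them or in neither, for each family, for the 150 members and for all 7543 coding genes with a region. Both lists held the region at 36.0% of members and 52.5% of coding genes, with families from 11.1% (srj) to 62.5% (sri).

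Applied to each replicate's own list, the window rule found 174 of the 580 genes in replicate 1 and 170 in replicate 2. Both found 80 genes, 63 of them members and 17 outside the 150. Conversely, 9 members had a summit of neither replicate in the window, so that their membership rests on the list of both replicates together.

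The window reached farther upstream than downstream, and the summits lay on both sides of the start. They were upstream of the 5′ end at 133 of 150 members (88.7%), beside 88.0% of all coding genes with a region, and the median distance was 331 bp, beside 320 bp for all coding genes with a region. The family medians were 292 bp for srh, 293.5 bp for sri, 313.5 bp for srd, 332 bp for str and 681 bp for srj. The interval from −400 to −200 bp held the most summits, 45 (30%), and the last 200 bp before the start held 26 (17.3%). Over all coding genes these intervals held 22.2% and 23.5%. The summit was outside any coding gene at 112 members, in an exon at 30 and in an intron at 8. Of those in exons, 16 were in the receptor gene itself, such as str-168 (57 bp downstream of its start) and str-97 (173 bp downstream, signal 28.6), and 14 in a neighbour.

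The start of another coding gene was nearer to the strongest summit at 16 of 150 members (10.7%), beside 17% of coding genes with a region. They were 7 srh, 5 str, 2 srj, 1 srd and 1 sri genes. In 5 of these cases the nearer gene was itself of these 5 families, as at srj-54 (25.4), whose summit lay 938 bp from its own start and 829 bp from that of srh-270, and at srh-231, whose region (signal 27.1) lay 561 bp upstream of it and 206 bp upstream of the divergent srh-275. At srd-4 (27.6) the nearer start was that of usip-1, at 268 bp against 487 bp, at str-60 (24.0) that of the nuclear receptor gene nhr-213, at 343 bp against 882 bp, and at srj-20 (23.6) that of nhr-290, at 228 bp against 745 bp. A noncoding gene alone was nearer at another 6 members, a piRNA gene at 5 of them and a tRNA gene at 1. That was srh-269 (21.9), whose summit lay 24 bp from a tRNA start and 290 bp from its own. At the remaining 128 members no other start was nearer, with pseudogenes left out. Coding and noncoding starts together were nearer at 22 members (14.7%), beside 26.6% of coding genes with a region. A pseudogene's start was nearer than the member's own at 4 members (2.67%), beside 0.65% of coding genes with a region.

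**Figure D4:**
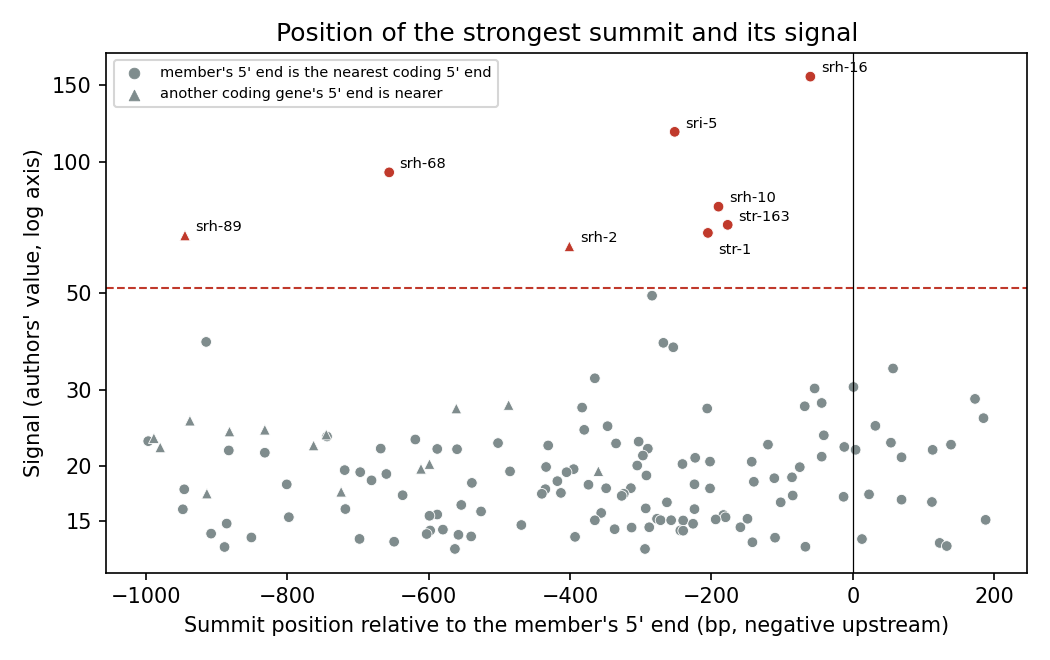
Position of the strongest summit relative to the member's 5′ end (bp) against its signal (log axis) for the 150 members; triangles mark members for which another coding gene's start is nearer, red marks an optimal peak, and the dashed line is the lowest optimal signal of 51.3. The 8 optimal peaks all lie upstream of the receptor gene, and 2 of them, at srh-89 and srh-2, are triangles.

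A region between divergent genes counted for both. The windows of other coding genes held the strongest region of 28 members (18.7%), beside 27.8% of coding genes with a region, and at 27 of the 28 a partner was divergent. The partner was another member at 6, in the pairs srh-231 and srh-275 (signal 27.1), str-88 and str-102 (22.3) and str-240 and str-243 (20.2). Among the optimal peaks, those at sri-5, srh-89 and srh-2 were in such shared starts, and in each the partner was no chemoreceptor gene. Those at srh-68, srh-10, str-163 and str-1 were in no other coding gene's window. Their signals ran from 68.7 to 94.6 and their G and C content from 27.7% to 38.6%.

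More than 1 region lay in the window of 32 members (21.3%), close to the 20.8% of all coding genes with a region. The window of srd-11 held 4, the most, with the strongest at a signal of 24.2. Those of srh-78 and srh-166 held 3 each, with strongest signals of 37.5 and 23.5. None of the regions at these 3 genes was an optimal peak.

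Chromosome V held 106 of the 150 members and 426 of the 580 genes of these families. A region lay at 24.9% of its genes of these families, at 10.4% of the 67 on chromosome II, at 34.1% of the 44 on IV and at 57.1% of the 21 on X. Chromosomes I and III held 13 and 9 such genes, with 5 members each (38.5% and 55.6%). Over all coding genes the shares were 35.9% on V, 26.8% on II, 41.3% on IV and 40.4% on X. They were 41.7% on I and 44.2% on III. Of the 61 sri genes 31 are on II, where 1 had a region, while 6 of 21 on V did. The part of the chromosome in the family's count was not tested.

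The srd genes on chromosome X had regions at 9 of 14 (64.3%), against 15 of the 53 elsewhere. Their signals were low, from 12.9 at srd-36 to 23.0 at srd-39 with a median of 15.1. Both replicates held the strongest region at 2 of the 9, srd-39 and srd-42, and neither at 2, srd-44 and srd-36. At srd-44 a weaker region in the window (signal 13.2 against 13.3) overlapped regions of both replicates, at ranks 17245 and 18752. The high count of srd genes on X thus consisted of weak regions with mixed support.

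In bins of 200 kb, members were densest on chromosome IV from 4800001 to 5000000, a bin chosen after its values were seen. It holds 17 str genes and 8 members: str-163, str-168, str-170, str-174, str-153, str-166, str-156 and str-175. Replicate 2 alone listed the region at 7 of these, and both replicates at str-163. The ranks of those 7 in replicate 2 ran from 1649 at str-168 to 25122 at str-166. Elsewhere 36 members had their region in replicate 2 alone and 44 in replicate 1 alone. The bin also holds 259 piRNA genes, of the kind clustered on this chromosome, and 7 of the 8 members had a piRNA start within 1000 bp of the summit. Over all 150 members such a start was found at 14 (9.33%), beside 5.87% of all coding genes with a region. Its share among all regions of the bin was not counted, so the 7 of 8 is not read as a trait of the members. Of all 62 regions in the bin, replicate 2 alone listed 40.3% and replicate 1 alone 21.0%, beside 24.99% and 23.5% of all 30000 regions. The part of 1 replicate or of the piRNA genes in these regions was not tested.

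Some of these receptors are known from studies of single neurons, and they were looked up by name after the values were seen. Beside str-1, regions lay at str-3, a gene of the pheromone-sensing ASI neurons (signal 22.4, 120 bp upstream), and at str-44 (17.3, 440 bp upstream). They ranked 9150 and 17341 of 30000, far outside the optimal list. The windows of str-2, known for its expression in only 1 of the paired AWC neurons, and of str-217, srh-142, srh-234 and srd-1 held no summit. The nearest summit lay from 2445 bp (str-2) to 22930 bp (srh-142) from their starts.

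Base composition and the same 3 motifs were also counted over all members. The GC content of the summit window had a median of 31.7%, beside 33.7% over all coding genes with a region, 31.7% over all 30000 regions and 44.6% over the optimal peaks. The Sox core lay within 50 bp of the summit at 56 of 150 members (37.3%), beside 27.3% of coding genes with a region. Counted by region, its share was 28.7% of all regions and 23.2% of optimal peaks. By family it was at 23 str, 20 srh, 7 srd, 4 srj and 2 sri genes. The motif GAGAG was at 15 members (10%), beside 18.5% of coding genes with a region, 14.4% of all regions and 36.1% of optimal peaks. The E-box was at 3 members (2.00%), beside 2.21%, 2.02% and 5.41% in the same order. Among the 8 members with an optimal peak, 1 had the Sox core, 2 had GAGAG and none had the E-box. The letters of the Sox core are mostly A and T, and the part of base composition in its share was not tested.

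Repeated sequence bears on whether reads can be placed in these gene families, so the windows were searched for 31-base words that occur at 1 place only in the nuclear genome. In the windows of members the median share of such words was 100%, and it was under 90% at 17 of 150 members (11.3%). In those of the 430 genes without a region the median was 98.9%, and it was under 90% at 99 (23.0%). Over all coding genes the shares under 90% were 8.35% with a region and 18.4% without. All members with an optimal peak had at least 97.9%. How the authors placed reads with several matches is not given in the sources used here, and the part of repeats in the counts was not tested.

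Other chemoreceptor families give a frame for these counts. Regions lay at 52 of 124 genes of the Sra superfamily (41.9%), at 109 of 309 of the Srg superfamily (35.3%) and at 100 of 289 of the families srbc, srsx, srw, srz and srr (34.6%), beside 25.9% here. Optimal peaks were at 3, 3 and 2 of those with a region (5.77%, 2.75% and 2.00%), beside 5.33% here. The Sox core lay within 50 bp of the summit at 32.7%, 29.4% and 35% of those with a region, beside 37.3% here. The families srm and srn, which belong to the Str superfamily but not to the selection, had a region at 1 of 7 genes.

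The edges of the window decided some members. The outermost members were srh-76, with its summit 997 bp upstream (signal 22.8), and srd-45, with its summit 188 bp downstream (15.1). Just outside, srh-70 had a summit 1008 bp upstream (14.0) and srh-22 one 204 bp downstream (15.4). Of the 430 genes without a region, 8 had a summit in the 100 bp beyond the upstream edge, 9 had one in the 100 bp beyond the downstream edge and 74 had one within the gene. The summits just outside were at no optimal peak. The median distance from these genes' starts to the nearest summit was 3548.5 bp.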

How the data were processed

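ChIP-seq region lists of 2 replicates were used. Per the deposited file notes, the authors made a list from each replicate's alignment and 1 from both, each with a further input file, and derived the optimal list from these 3 by the irreproducible discovery rate. No source used here names the caller, aligner or threshold. Signal, as deposited by the authors, was ranked inside each list. Signals of the 2 replicate lists were also set side by side and correlated, although their scale is unstated. The −log10 q-values of the authors gave no result, and summit offsets (other values) gave positions. The ce10 lists were not used, since no ce10 annotation was at hand.

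Gene starts came from Ensembl release 115 (WBcel235, the sequence of ce11), with its symbols, and all 580 genes matched RefSeq by WormBase identifier, 572 with the same symbol. Each gene took its highest-signal region, and each region the strongest one overlapping it by at least 1 bp in each replicate. The members, families, motifs and named genes were chosen with earlier results of these data known. Named were members with an optimal peak, the 2 strongest and the weakest of each family, the 3 strongest below the optimal list and those with 3 or more regions. Others named were chosen after their values were seen. Assignment and overlap were tested on simulated data. Computations used Python 3.11.15, numpy 2.4.6, pandas 2.3.3 and scipy 1.17.1, with exact (Clopper-Pearson) 95% intervals. Some results are not reported here.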

Additional observations from a re-analysis of the deposited data

How the results depend on the processing

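Of 44 values recomputed under alternatives, 31 stayed within the limits set and 13 moved beyond them. The limits were 1.5 times in either direction for counts. For medians they were the SD between replicates (0.157 for signal and 25.8 bp for distance). The moved values include the median signal of each replicate's own list. Those lists have their own signal scales, so this limit cannot judge these values. A window of 500 bp upstream to 100 bp downstream left 97 members, 6 of them with an optimal peak (srh-68 and srh-89 were lost), with a median signal of 18.5, a median distance of 244 bp and 3 genes with a nearer coding start. With 2000 bp upstream the distance was 689 bp and 66 genes had a nearer coding start, and srd-43 and str-93 joined the 8 genes with an optimal peak. Giving each summit to its nearest coding start left 135 members, 6 with an optimal peak (srh-89 and srh-2 lost), at a median signal of 18.2 and a distance of 294 bp. Regions found in both replicates left 56 members. Requiring a summit of each replicate within 100 bp of the summit of the member's strongest region left 26 members supported by both, in place of 54. The 748 strongest optimal peaks held 4 members.

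Each replicate's own list gave 170 to 174 members, 7 to 8 with a peak among its 1497 strongest regions, median signals of 11.2 to 11.4 on the lists' own scales, 20 to 22 genes with a nearer coding start and distances of 320 to 356.5 bp. Without replicate 2, 7 of the 8 genes kept such a peak (str-1 lost). Without replicate 1, 7 of the 8 did (str-163 lost), and srd-53 was gained. RefSeq symbols, an alternative chosen after seeing the data, changed none of the 6 results. Read depth is unknown, so what it limits cannot be given. No paired analysis was possible because there is 1 group.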
